A study of Oryctolagus cuniculus with 4 samples.

Results

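Probes for the cytokine genes CCL2, LIF and IFNG were followed in the ligamentum flavum of male rabbits aged 34 weeks, all labelled 16 weeks after surgery. This ligament, rich in elastic fibres, spans from one vertebral arch to the next behind the spinal canal. The members were all probes annotated to a RefSeq transcript of these genes, 7 of 43596 probes usable on all 4 arrays: 4 for CCL2, 1 for LIF and 2 for IFNG. The 3 genes were chosen with their values on these arrays known, so the differences below are descriptions and carry no test.

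Per the labels, the animals were operated on at 18 weeks of age: muscle was removed at L3/4, while L2/3 and L4/5 on either side of it underwent instrumented posterolateral fusion. Ligament came from the intervertebral stress concentration (ISC) level L3/4, from L3/4 of a control (the L3/4 control below), from the fused levels L2/3 and L4/5, and from L2/3 and L4/5 of a control (the adjacent-level control below). The same operation is written beside all 4 samples, and whether control animals were operated on, and whether RNA of several animals or of both fused levels was pooled, is not given in the sources used here. Each group was measured on 1 single-colour array, all 4 on 1 slide, so the number of arrays limits the precision and no value has a spread between animals. Mechanical stress, or relief from it, and local surgery cannot be told apart in these groups.

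Between 59.6% and 67.9% of probes were well above background on the 4 arrays. The ligament markers COL1A2, DCN, LUM, OGN and BGN were well above background on all 4 arrays, while TNMD, tenomodulin, was not at the fused levels. Markers of other tissues differed between the arrays. The signals of 12 skeletal muscle genes summed to 866 times the array's 75th percentile in the adjacent-level control and to between 14.6 and 28.1 times it on the other arrays. The signals of 6 neutrophil and marrow genes summed to 282 times it at the fused levels and to between 5.12 and 11.3 times it elsewhere.

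CCL2 encodes a chemokine that draws monocytes through the receptor CCR2, and connective tissue cells make it in response to inflammatory signals. LIF encodes a cytokine of the interleukin 6 family that signals through LIFR and gp130 to STAT3. IFNG encodes interferon gamma, made mainly by T and NK cells, which acts through its own receptor and raises MHC class II and other genes of antigen presentation. All 3 are short-lived messages of inflamed tissue and are usually low in resting connective tissue.

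Levels are given as log2 of the processed signal minus the array's 75th percentile, so that 0 is the 75th percentile of all probes on that array. The error beside a signal is Feature Extraction's own estimate for the spot, and beside a level or a difference it is the same estimate carried to the log2 scale. It covers the scan of 1 spot and says nothing of animals. A difference of at least 2-fold, 1 on the log2 scale, is used as a fixed size.

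CCL2 was higher at the ISC level, and lower at the fused levels, than on the array of the matching control. On the brightest of its 4 probes (A_04_P001373), the processed signal was 79.1 ± 8.04 at the ISC level, 15.5 ± 1.99 in the L3/4 control, 27.8 ± 3.17 at the fused levels and 47.3 ± 5.02 in the adjacent-level control. After scaling these were levels of −0.24, −1.78, −1.62 and −0.62. The ISC level and the adjacent-level control were thus the high arrays, and the fused levels and the L3/4 control were the low ones. The ISC level exceeded its control by 1.54 ± 0.24 on the log2 scale, or 2.906-fold. With normexp background correction, whose offset shrinks dim spots, it was at 0.51, under 2-fold. Over all features measured in this comparison, 9.11% exceeded the control by 2-fold or more, 10.5% lay 2-fold or more below it, and 3.25% had a difference as high as that of CCL2. Of the features past 2-fold 46.5% were higher, and 58.9% with the authors' deposited values, which differ from these by 1 factor per array. The fused levels were at −1.0 ± 0.22 against their control, which is 1.999-fold lower and lies on the edge of the fixed size, where 9.15% of features were at least 2-fold lower and 7.82% at least 2-fold higher. With normexp it was at −0.37.

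All 4 CCL2 probes placed the arrays in the same order, from the ISC level through the adjacent-level control and the fused levels to the L3/4 control. The gap between the highest arrays was between 0.32 and 0.75, over the spot error on each probe. The gap between the lowest arrays was 0.06 to 0.44, under the spot error on each probe. The second probe, A_04_P001372, was at 1.88 ± 0.31 for the ISC level against its control. The remaining probes, A_04_P001374 and A_04_P001371, were well above background at the ISC level and not in the L3/4 control, where their signals were 4.21 and 3.72, and the ISC level was at least 3.96-fold and at least 3.32-fold higher. For such a bound, the dim array is taken at the probe's own signal or at the dimmest spot of that array that is well above background, whichever is higher. At the fused levels all 4 probes were well above background on both arrays, with differences from −1.59 to −1.0, and 3 of the 4 were at least 2-fold lower than the control.

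The CCL2 differences changed with the control array used. The L3/4 control was itself lower than the adjacent-level control on the brightest probe, at −1.16 ± 0.24, in a comparison where 9.2% of features were at least 2-fold lower and 8.38% at least 2-fold higher. Against the adjacent-level control the ISC level was at 0.37 ± 0.21, with a range of 0.32 to 0.75 over the 4 probes, none of them 2-fold, where 3.54% of features were at least 2-fold higher. Against the L3/4 control the fused levels were at 0.17 ± 0.25, opposite in sign to the matched comparison and within the spot error. Set directly against each other, the ISC level was higher than the fused levels by 1.37 to 2.20 over the 4 probes, each at least 2-fold, where 6.98% of features were. The same comparison had IFNG at −2.59 ± 0.21 on its bright probe, described below, and 7.77% of features at least 2-fold lower. The lumbar levels differ between those 2 arrays.

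**Figure D1:**
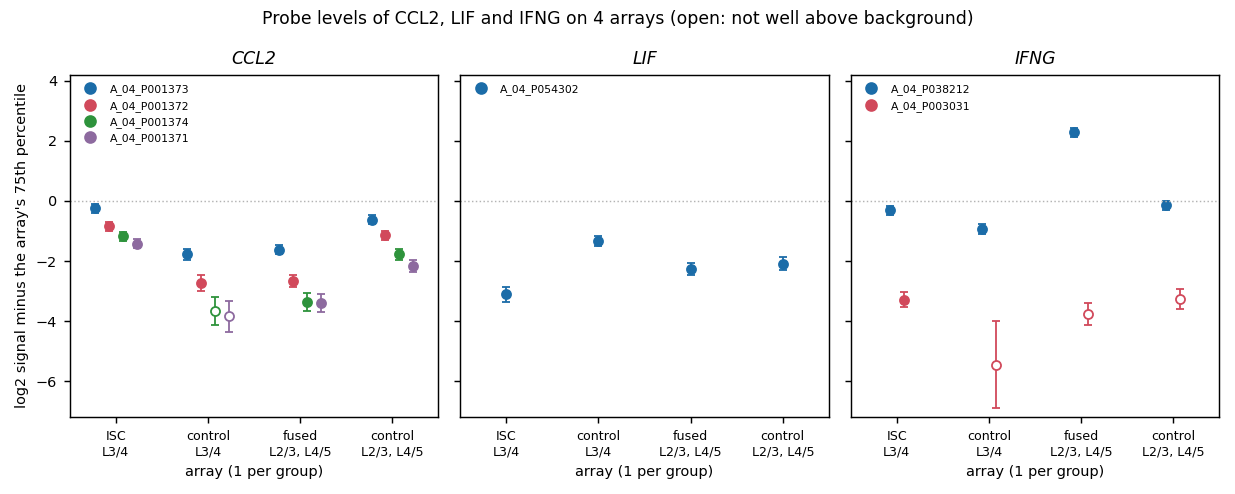
Levels of the 7 probes on the 4 arrays, as log2 signal minus the array's 75th percentile (dotted line at 0), with Feature Extraction's spot error as bars and open points where the spot was not well above background. The 4 CCL2 probes share 1 order of the arrays but not the size of the gaps. LIF is highest in the L3/4 control at −1.33 and lowest at the ISC level at −3.11. The IFNG probes part at the fused levels, at 2.28 and −3.75.

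LIF was lower at the ISC level than on any other array. Its 1 probe (A_04_P054302) had signals of 10.9 ± 1.82 at the ISC level, 21.2 ± 2.50 in the L3/4 control, 17.8 ± 2.41 at the fused levels and 17.1 ± 2.49 in the adjacent-level control. These are dim spots, since the lowest signals that Feature Extraction called well above background lay between 6.01 and 7.82 on the 4 arrays. The scaled levels were −3.11, −1.33, −2.26 and −2.09. The L3/4 control stood highest, the adjacent-level control and the fused levels did not differ beyond the spot error (0.17 ± 0.29), and the ISC level stood lowest by 0.84 ± 0.31.

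The ISC level was at −1.77 ± 0.30 for LIF against the L3/4 control, 3.417-fold lower, and 2.05% of features were as low. With normexp it was at −0.67, under 2-fold. Of this difference −0.96 came from the signals themselves and −0.81 from the scaling of the arrays, whose 75th percentiles were signals of 93.8 and 53.4. For CCL2 the same scaling worked the other way, from 2.35 in unscaled signal to 1.54. Against the adjacent-level control LIF was at −1.01 ± 0.32 at the ISC level, 2.02-fold lower and on the edge of the fixed size. Of this, −0.65 came from the signals and −0.37 from the scaling. In that comparison 5.03% of features were at least 2-fold lower. The fused levels were at −0.17 ± 0.29 against their control and at −0.93 ± 0.26 against the L3/4 control, both under 2-fold, and in the latter comparison 12.9% of features were at least 2-fold lower. With 1 probe for the gene, no other spot on the arrays bears on these values.

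IFNG was higher at the fused levels than on any other array, on 1 of its 2 probes. Probe A_04_P038212 had signals of 75.8 ± 7.69 at the ISC level, 27.9 ± 3.05 in the L3/4 control, 414 ± 41.4 at the fused levels and 65.9 ± 6.78 in the adjacent-level control. The fused levels stood apart from the other 3 arrays, which lay between −0.94 and −0.14 after scaling, against 2.28. The difference from the adjacent-level control was 2.42 ± 0.21, or 5.35-fold, with 2.02% of features as high, and the difference from the L3/4 control was 3.21 ± 0.21, or 9.281-fold, with 1.35% as high and 11.2% higher by 2-fold or more. For the ISC level the probe was at 0.63 ± 0.22 against the L3/4 control and at −0.17 ± 0.21 against the other control, under 2-fold in both and opposite in sign.

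The second IFNG probe did not show this. Probe A_04_P003031 had signals of 9.68 ± 1.67 at the ISC level, 1.23 ± 1.23 in the L3/4 control, 6.33 ± 1.59 at the fused levels and 7.51 ± 1.77 in the adjacent-level control. It was well above background at the ISC level and on no other array, and in the L3/4 control its signal was no higher than the median of 1.26 over the negative control spots. At the fused levels it was not the highest array but the third of the 4, at −3.75 after scaling against −3.27 in the control of the same levels, a difference of −0.48 ± 0.50 between spots not well above background. Both probes are annotated to the same transcript. Such a split in detection was not rare: of 499 named genes with several probes of which at least 1 was well above background on all 4 arrays, 108 (21.6%) had another that was so on at most 1 array. That share says nothing of the size of a difference. For the fused levels against their control, 433 named genes had 2 or more measured probes. Their range over probes had a median of 0.3 and was at least 1 in 10.9%. IFNG is not among them, as its second probe was not measured. Averaged over both probes, IFNG at the fused levels was at 0.97 against the control, under 2-fold. Whether probe A_04_P038212 reads IFNG transcripts alone was not tested.

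**Figure D2:**
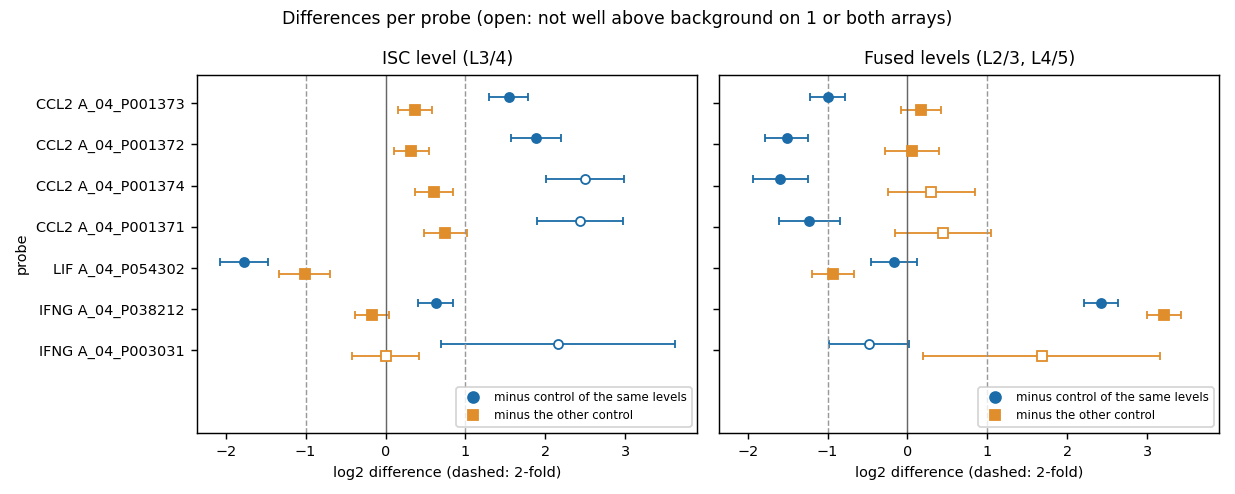
Log2 differences of the 7 probes for the ISC level (left) and the fused levels (right), against the control of the same levels (circles) and the other control (squares), with the carried spot error as bars, open points where a spot was not well above background, and dashed lines at 2-fold. CCL2 moves from 1.54 to 0.37 at the ISC level with the choice of control on its brightest probe, whereas IFNG probe A_04_P038212 stays above 2 at the fused levels against either.

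Among the 3 genes the arrays were ordered differently. CCL2 was highest at the ISC level, LIF in the L3/4 control and IFNG at the fused levels. The root mean square difference between the centred profiles over the 4 arrays was 1.21 for CCL2 and LIF, 1.54 for CCL2 and IFNG and 1.5 for LIF and IFNG. From lowest to highest array CCL2 spanned 1.54, LIF 1.77 and IFNG 3.21 on the log2 scale. Over 12742 features well above background on all 4 arrays the median span was 0.89, and 18.7%, 13.2% and 2.49% spanned as much as CCL2, LIF and IFNG.

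Genes of the pathways around the 3 cytokines were taken from 5 lists, chosen with earlier results of these data known. Their counts are therefore descriptions and carry no test. Of 99 symbols, 22 had a named probe, and each matched comparison had 12 of them, not all the same, well above background on its arrays. At the ISC level 2 of the 12 exceeded their control by 2-fold or more and 1 lay 2-fold or more below it, where 9.11% and 10.5% of all features did. Their median was 0.06, beside −0.16 over all features. At the fused levels 5 of the 12 exceeded their control by that size and 2 lay below it, where 7.82% and 9.15% of all features did. Their median there was 0.73, beside −0.13.

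Of receptors and other chemokines 6 genes were named. CCR1, a receptor of several CC chemokines, was at least 5.42-fold higher at the fused levels, as their control was not well above background. CXCL8, a neutrophil chemoattractant, was at 0.40 at the ISC level, with 5 measured probes from −0.13 to 0.88. At the fused levels it was at 1.05, with 5 measured probes from 0.79 to 1.79. CXCR2, its receptor on neutrophils, was at 0.01 and 1.32. CCL7, a close relative of CCL2, and CCL4 were not well above background on any array, and CCR2 was not analysed here.

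The next list held genes known to induce CCL2 or LIF, and with them IL1RN, the interleukin 1 receptor antagonist, which blocks such a signal. TLR2, a receptor for bacterial lipoproteins, was at 1.60 at the ISC level and 0.48 at the fused levels, each on 1 measured probe of 3. TLR4, the receptor for lipopolysaccharide, exceeded the L3/4 control at least 2.7-fold at the ISC level and was at 0.98 at the fused levels. Like CCL2, TLR2 was low in the L3/4 control, at −1.24 against the other control, and the ISC level was at 0.36 against that control. TLR4 at the ISC level was at −0.04 against it. IL1A was at −1.49 at the ISC level, on 1 measured probe of 4. IL1B was at −0.38 there, on 1 measured probe of 3, and at the fused levels it was at least 21.8-fold higher. IL1RN was at −0.72 and 2.79, and was the 1 measured gene of the list at least 2-fold higher at the fused levels. JUN, a subunit of the transcription factor AP-1, was at 0.82 at the ISC level and −1.01 at the fused levels, in the same directions as CCL2. TNF was not well above background on any array.

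Little of the LIF pathway could be read. IL6, of the same cytokine family, was not well above background on any array, and CNTF, another member, was so at the ISC level alone, which was at least 1.26-fold higher than the L3/4 control. LIFR, IL6ST, STAT3 and SOCS3 were not analysed here.

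Beside IFNG, 2 inducers or partners were measured, and neither was 2-fold higher at the fused levels. IL15, which sustains NK and memory T cells, was at −1.46 there and at 0.69 at the ISC level, each on 1 measured probe of 7. Against the other control it was at −2.8 at the fused levels and at 2.03 at the ISC level. IL18, which induces interferon gamma, was at 0.04 at the fused levels, with 7 probes from 0.04 to 0.29. At the ISC level it was at −0.42, with 6 measured probes from −0.42 to 0.12. Of 5 named interferon targets, 3 were measured and 2 were at least 2-fold higher at the fused levels, where 7.82% of all features were. These were VCAM1, an adhesion molecule of activated endothelium, at 2.21 with 5 probes from 1.71 to 2.21, and RLA-DR-ALPHA, an MHC class II chain, at 2.10 with probes at 2.10 and 2.31. WARS1, a tryptophanyl-tRNA synthetase, was at 0.32 with a probe at −0.76. CYBB, the phagocyte oxidase subunit, was at least 4.11-fold higher, and IRF1, a transcription factor induced by interferon gamma, was not well above background on any array. At the ISC level RLA-DR-ALPHA was at 1.14, VCAM1 at 0.11 with a probe at −1.01, and WARS1 at −0.99.

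**Figure D3:**
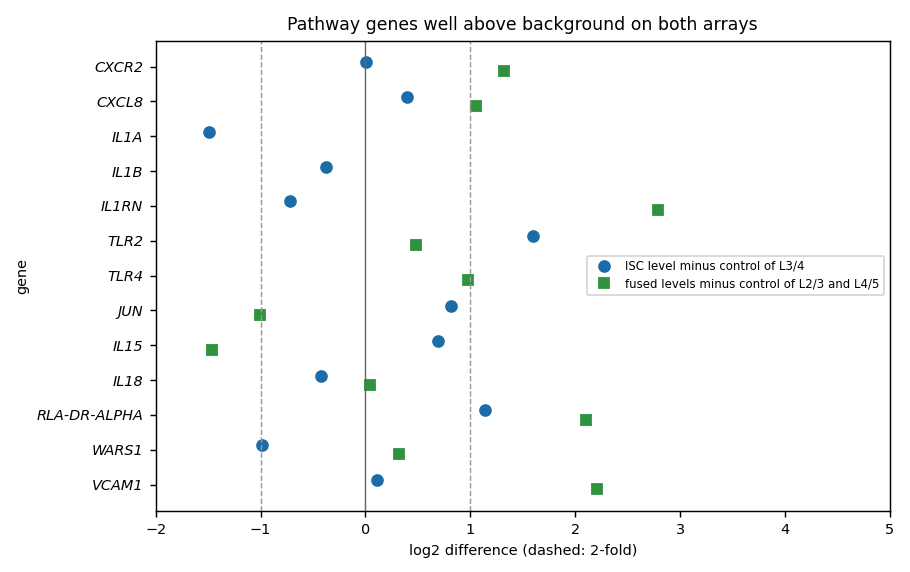
Log2 differences of pathway genes well above background on both arrays of a comparison, for the ISC level against the L3/4 control (circles) and the fused levels against the adjacent-level control (squares), with dashed lines at 2-fold. At the fused levels IL1RN at 2.79, VCAM1 at 2.21 and RLA-DR-ALPHA at 2.10 lie farthest to the right, and at the ISC level TLR2 at 1.60.

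Markers of cells that make or answer these cytokines were read beside them. In bulk tissue, fewer cells of a type and less RNA per cell cannot be told apart. Of 5 named T and NK cell genes, 3 were measured at the fused levels and 0 were 2-fold apart in either direction, with CD4 at −0.08, CD28 at −0.41 and CD5 at −0.22. With 7.82% of all features at least 2-fold higher and 9.15% lower, a count of 0 among so few genes is near the background. CD3E was at least 1.12-fold higher there, with a control spot not well above background, and CD247 was not well above background on any array. The signals of the 5 summed to 0.995 times the 75th percentile at the fused levels, 1.06 in their control, 0.785 at the ISC level and 1.27 in the L3/4 control. Granulocyte genes did differ with IFNG at the fused levels: all 5 measured neutrophil and marrow genes exceeded 2-fold there, and their median was 5.34, with CAMP at 6.14 and S100A9 at 5.34. Both haemoglobin genes, HBA at 2.10 and HBB2 at 2.06, exceeded 2-fold there as well. Against the L3/4 control they were at 0.52 and 0.61 at the fused levels, under 2-fold. Their signals summed to 1150.0 times the 75th percentile at the fused levels and 273 in the control of the same levels. The sum was 434 at the ISC level and 779 in the L3/4 control. All 4 measured adipocyte genes also exceeded 2-fold against the control of the same levels, with a median of 1.94. They ran from LEP at 1.24 and ADIPOQ at 1.32 to LPL at 2.55 and PPARG at 2.63. Against the L3/4 control 3 of the 4 exceeded 2-fold, and PPARG was at −0.22. The adipocyte signals summed to 20.0 times the 75th percentile at the fused levels and 6.05 in the control of the same levels. The sum was 7.82 at the ISC level and 4.96 in the L3/4 control. The part of the granulocyte, blood and adipocyte content in the IFNG value was not tested.

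Beside CCL2, the 3 named monocyte and macrophage genes summed to 1.38 times the 75th percentile at the ISC level, 0.769 in the L3/4 control, 2.33 at the fused levels and 1.17 in the adjacent-level control. CD14, the lipopolysaccharide co-receptor, was at 0.71 at the ISC level and 1.07 at the fused levels, where CCL2 was lower. For CD14 the L3/4 control was itself at −0.49 against the adjacent-level control. Against the other control CD14 was at 0.22 at the ISC level and 1.56 at the fused levels. MSR1, a scavenger receptor of macrophages, exceeded the matching control at least 1.94-fold at the ISC level and at least 2.26-fold at the fused levels. CD86 was not well above background on any array. Beside LIF, the endothelial genes lay below the L3/4 control at the ISC level, with −1.32 for KDR and −2.57 for SOX17. KDR was measured on 1 of its 6 probes. SOX17 was itself higher in the L3/4 control than in the adjacent-level control, by 1.48. Against the latter it was at −1.09 at the ISC level. Of the 4 measured T cell genes, CD3E at −1.23 and CD28 at −1.07 were at least 2-fold below the L3/4 control there. CD4 at −0.51 and CD5 at −0.46 were not, and 10.5% of all features were. The skeletal muscle content of the adjacent-level control stands beside every difference taken against that array, and its part was not tested.

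The named genes nearest to each cytokine were sought among 885 others well above background on all 4 arrays, by the root mean square difference of log2 levels centred over the 4 arrays. Nearest to CCL2 were MFAP1, a splicing factor, at 0.07, TVP23C at 0.08, SPRTN, a protease of DNA repair, at 0.09, and TGFB2, a transforming growth factor ligand, and KCNMA1, a potassium channel, at 0.10 each. KCNMA1 was at 1.51 at the ISC level and −0.96 at the fused levels, and TGFB2 at 1.27 and −0.95. Nearest to LIF were SLC22A3, an organic cation transporter, at 0.18, MYH11, the smooth muscle myosin, and TNFSF13B, the B cell survival factor BAFF, at 0.20 each, and SLC12A7 at 0.23. MYH11 was at −2.19 at the ISC level and −0.07 at the fused levels. Nearest to IFNG probe A_04_P038212 were AOAH, a phagocyte enzyme that inactivates lipopolysaccharide, at 0.21, KCTD12 at 0.34, VCAM1 at 0.35, and CD1D, a lipid-presenting molecule, and APOD, apolipoprotein D, at 0.41 each. AOAH was at 0.13 at the ISC level and 2.48 at the fused levels. These likenesses are over 4 arrays only.

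**Figure D4:**
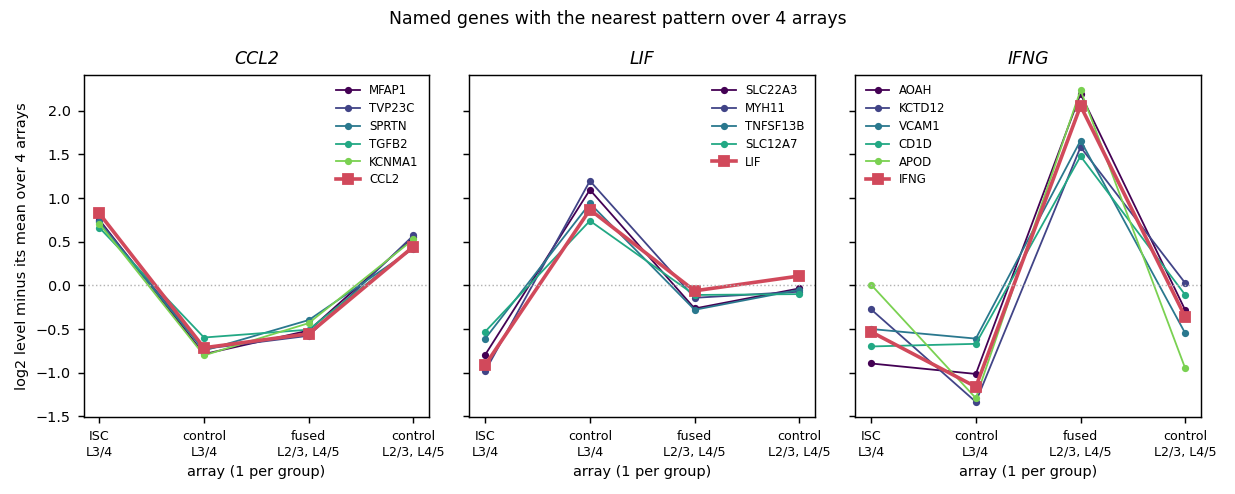
Log2 levels centred on their mean over the 4 arrays for CCL2, LIF and IFNG (squares, thick lines) and the nearest named genes reported for each (circles); lines join the values of 1 gene and carry no order in time. The genes nearest to CCL2 lie within a root mean square difference of 0.10, those nearest to IFNG within 0.41.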

How the data were processed

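Cy3-labelled cDNA from total RNA was hybridised to Agilent single-colour arrays and, per the submitters' processing notes, read with version 12.0.3 of Agilent Feature Extraction. Per the file headers, the processed signals are linear spot intensities from which background and a spatial trend were removed array by array. Per the same headers, these signals were not scaled between arrays. Here log2 was taken, 3 to 7 outlier spots per array were left out, spots of 1 probe were averaged and the 75th percentile over probes was subtracted (signals of 93.8, 53.4, 85.3 and 72.7 for the ISC level, the L3/4 control, the fused levels and the adjacent-level control). No spot was saturated. Over probes with 5 or more spots the median SD of log2 signal was 0.118 to 0.153. Each member probe has 1 spot.

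Names were taken from RefSeq's gene table for assembly mOryCun1.1 through the RefSeq accessions in the files. Coordinates are left out, as the array was designed on another build. In all, 3792 of 43596 probes (8.7%) received a name, from 1489 genes. A gene is represented by its probe with the highest mean level, and features are named genes or unnamed accessions, 22901 in all. Comparisons take in the features whose spots were well above background on each array compared. No probe sequence is given.

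The authors' deposited value table holds intensities equal to the processed signal times 1 factor per array (all spots within 0.1%), with medians of 515.5, 442.3, 498.4 and 504.0 in the order above. Its scale and direction are thus known, and how the factors were chosen is not. It was used as an alternative.

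The members and lists were chosen with earlier results of these data known. Named are the members, list genes measured or bounded, and for each member the 5 nearest named genes, of which some are not reported here. Alternatives were quantile normalization, centring on the median of the probes detected on all arrays, the authors' scaling, normexp (limma 3.58.1, offset 50, on median spot signals, as mean signals were not used here), the mean over a gene's probes and other filters on dim probes. The other control and the other probes were added after seeing the data. Scaling and differences were tested on simulated data. With 1 array per group no test between groups was run.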

Additional observations from a re-analysis of the deposited data

Results flagged for a closer look

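CCL2 drew attention because it differed in opposite directions at the operated sites, at 1.54 at the ISC level against the L3/4 control and at −1.0 at the fused levels against the adjacent-level control, on the log2 scale. Each value rests on 1 array a side, and the difference between them was not tested. The 2 of the 4 CCL2 probes that were measured in both comparisons had these signs. The value at the fused levels is 1.999-fold, on the edge of the fixed size. The opposite directions were seen against the matching controls only. Against the other control CCL2 was at 0.37 at the ISC level. At the fused levels it was then at 0.17 ± 0.25, within the spot error.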

How the results depend on the processing

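Quantile normalization, centring on the median and the authors' scaling kept the direction of each of the 6 matched differences of CCL2, LIF and IFNG and moved none by more than its spot error. Under these scalings CCL2 at the fused levels was at −0.99, −0.98 and −1.01, on either side of 2-fold. The authors' scaling also moved the median of all features at the ISC level from −0.16 to −0.04. Normexp with its offset shrinks dim spots: CCL2 was then at 0.51 for the ISC level and −0.37 for the fused levels, LIF at −0.67 for the ISC level, and IFNG at 0.25 and 1.84 for the ISC and fused levels, so that IFNG at the fused levels alone stayed past 2-fold. The mean over all probes gave 2.09 and −1.33 for CCL2 and 1.39 and 0.97 for IFNG, at the ISC and fused levels, and includes spots not well above background. Single further CCL2 probes gave 1.88 for the ISC level (A_04_P001372), and −1.51 (A_04_P001372), −1.59 (A_04_P001374) and −1.23 (A_04_P001371) for the fused levels. The other CCL2 probes at the ISC level and the second IFNG probe gave no value here, since each was not well above background on at least 1 array of the comparison. With the other control as reference, CCL2 was at 0.37 for the ISC level and reversed to 0.17 for the fused levels, LIF was at −1.01 and −0.93, and IFNG reversed to −0.17 for the ISC level and was at 3.21 for the fused levels. The cause was not tested. Features at least 2-fold apart numbered 2688 for the ISC level and 2328 for the fused levels, 523 and 704 with normexp, and 5897 and 5169 with no filter on dim probes. The share of these that were higher was 46.5% for the ISC level, 58.9% with the authors' scaling and 66.3% with normexp, and 46.1% for the fused levels, 62.1% with normexp. No paired analysis was possible because each group has 1 array, and no replicate could be left out. The dimness of the LIF spot and of the second IFNG probe limits what their values show.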
